A study of Mus musculus with 24 samples.

Results

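Imprinted genes were followed through motor neuron cultures that were made from different mouse embryonic stem cell lines. The list named 10 well-known imprinted genes, *H19*, *Meg3*, *Cdkn1c*, *Grb10*, *Dlk1*, *Mest*, *Peg3*, *Peg10*, *Plagl1* and *Snrpn*. Of these, 8 were matched to an entry among the 22889 entries of the RPKM table (reads scaled by transcript length and by mapped reads). The expression of *H19* and *Meg3* was not analysed here.

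Imprinted genes are transcribed mainly from the allele of a given parent. For many of them this rests on DNA methylation that is set in the egg or the sperm. It is kept after fertilisation on the allele from that parent, which may be the silent one. The maintenance of this methylation in early embryos and stem cells needs the zinc finger proteins ZFP57 and ZFP445, their partner TRIM28 and the methyltransferase DNMT1. Stem cell lines can lose or gain such methylation in culture, and many imprinted genes regulate growth and are also expressed in the developing nervous system. RPKM values sum both alleles, so that parental origin was not measured.

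The oculomotor cultures came from an *Islet1*-GFP line with a *Phox2A* transgene that a nestin enhancer switches on in neural progenitors, and received 100 ng/ml Fgf8 and 250 nM SAG, a hedgehog pathway agonist, over 5 days of patterning. The spinal cultures came from an *Hb9*-GFP line and were given 100 nM retinoic acid and 500 nM SAG for the same 5 days. GFP-positive and GFP-negative cells were separated by FACS, and each of the 4 groups held 6 SMART-seq2 samples. Line, reporter and patterning factors changed together and cannot be told apart, so that a difference present in both fractions may come from any of them.

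Depth was estimated from the step that a single read makes in the RPKM of low genes. It ranged from 748310 to 4627710 reads in the 16 samples with replicate numbers 1 to 4 and from 4828627 to 7610753 in the 8 samples with numbers 5 and 6. Values are therefore also given within these sets. This unequal depth limits the precision for genes near 1 RPKM, whose values rest on few reads in the shallow samples. The sets may differ in more than depth. The paper reports sequencing platforms with different read lengths, and how these relate to the replicate numbers was not tested.

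The sorting genes were checked first. *Isl1*, the gene behind the oculomotor reporter, lay between 141 and 369 RPKM in oculomotor GFP-positive samples and between 0.696 and 1.87 RPKM in GFP-negative ones. *Mnx1*, which encodes Hb9, lay between 43.1 and 149 RPKM in spinal GFP-positive samples. In spinal GFP-negative samples *Mnx1* was at most 4.72 RPKM except for replicate 4, which held 69.4 RPKM, so that this library goes against its label. Spinal GFP-positive replicate 4 also stood apart, with 7.63 RPKM of *Isl1* and a summed level of 6 neuron markers of 65.5 RPKM, against at least 305 RPKM in the other spinal GFP-positive samples. In spinal GFP-negative replicate 2, the gene models *Gm21738*, *Gm10801* and *Gm10800* took 68.8% of the summed RPKM, which leaves less for all other genes. Results are given with and without these 3 libraries where they changed a call.

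Whole marker lists were summed for each sample to show which cells the fractions held. The 6 neuron markers, led by *Tubb3*, had a median sum of 1280 RPKM in oculomotor GFP-positive and 38.1 RPKM in GFP-negative samples, and of 758 and 95.2 RPKM in the spinal fractions. The 8 motor neuron markers, led by *Isl1* with *Slc5a7* at 0 in 12 or more samples, had median sums of 633 and 17.9 RPKM in the oculomotor and of 262 and 28.3 RPKM in the spinal fractions. The 7 pluripotency markers, led by *Dppa5a*, were at 6458 RPKM in oculomotor GFP-negative samples and at 59.7 RPKM in GFP-positive ones. In spinal samples their median was 925 RPKM in GFP-positive and 232 RPKM in GFP-negative cells, with 12420 RPKM in GFP-positive replicate 5 and with 5312 and 5976 RPKM in the GFP-positive and GFP-negative samples of replicate 4. *Dppa5a* alone made up most of these high sums, at 593 to 9806 RPKM in oculomotor GFP-negative samples and 12330 RPKM in spinal GFP-positive replicate 5. In that spinal sample *Pou5f1* was at 2.15 RPKM and *Nanog* at 40.5 RPKM.

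The 7 neural progenitor markers, led by *Vim*, had medians of 339 and 192 RPKM in the oculomotor and of 254 and 284 RPKM in the spinal fractions, GFP-positive first. In the same order, the 8 endoderm markers, led by *Apoe* with *Afp* mostly at 0, were at 50.9, 319, 56.3 and 179 RPKM, and the 6 glial markers, led by *Fabp7* with *Gfap*, *Aqp4* and *Sox10* at 0 in 12 or more samples, at 23.0, 66.4, 128 and 338 RPKM. *Apoe* makes up most of the endoderm sum of oculomotor GFP-negative samples, at 69.35 to 809.5 RPKM. It was mostly lower in spinal GFP-negative samples, at 16.1 to 74.0 RPKM apart from replicate 4 at 720 RPKM. *Gata4*, *Gata6* and *Sox17* of this list, chosen after their values were seen, were instead higher in spinal than in oculomotor GFP-negative samples apart from spinal replicate 4. *Foxa2*, *Ttr*, *Apoa1* and *Afp* overlapped between these groups. *Gata4* was at 0.159 to 2.91 RPKM in oculomotor GFP-negative samples and at 8.62 to 19.1 RPKM in spinal ones (replicate 4 at 0.844 RPKM), and *Gata6* at 0.130 to 4.42 RPKM and 12.6 to 25.0 RPKM (replicate 4 at 2.65 RPKM). For trophoblast, 4 of 5 markers had an entry, led by *Krt8* with *Elf5* mostly at 0, and the sums were 1.39, 20.9, 5.03 and 49.1 RPKM. The 8 mesoderm and mesenchyme markers, led by *Twist1* with *Col3a1* and *Lum* at 0 in 12 or more samples, reached 2.64, 13.7, 2.23 and 8.33 RPKM. Of 6 endothelial and blood markers 4 had an entry, led by *Pecam1* with *Cdh5* and *Ptprc* mostly at 0, and their medians were under 1 RPKM in all 4 groups. The 4 Y-linked genes, led by *Eif2s3y*, with *Kdm5d* and *Uty* at 0 in 12 or more samples, summed to between 9.92 and 24.8 RPKM in oculomotor samples and to at most 0.249 RPKM in spinal samples, so that the lines also differed in their Y-linked transcripts, while *Xist*, the marker of X inactivation, was not analysed here.

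Among the maternally expressed members, *Cdkn1c* encodes the cyclin-dependent kinase inhibitor p57, which brings neural progenitors out of the cell cycle. It was at 83.8 to 274 RPKM (median 140.5) in oculomotor GFP-positive samples and at 35.6 to 216 RPKM (median 109) in spinal GFP-positive samples. The GFP-negative samples held 22.3 to 138 RPKM (median 53.5) in oculomotor and 30.1 to 135 RPKM (median 81.4) in spinal cultures. *Cdkn1c* was thus abundant in all 4 groups, and the cultures overlapped in both fractions.

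*Grb10* encodes an adaptor that restrains insulin and growth factor signaling, and it is maternally expressed in most tissues but paternally in neurons. Oculomotor samples held 14.5 to 41.1 RPKM (median 23.9) in GFP-positive and 25.2 to 45.1 RPKM (median 37.5) in GFP-negative cells. Spinal samples held 3.24 to 29.8 RPKM (median 9.14) in GFP-positive and 5.49 to 38.4 RPKM (median 13.4) in GFP-negative cells. The spinal groups were split, since replicates 4, 5 and 6 lay at 3.24 to 5.69 RPKM in GFP-positive cells and at 5.49 to 11.6 RPKM in GFP-negative cells, while replicates 1 to 3 lay at 12.6 to 29.8 RPKM and at 15.1 to 38.4 RPKM. Replicates 5 and 6 were also the lowest oculomotor GFP-positive samples, at 14.5 and 15.4 RPKM. In oculomotor GFP-negative cells replicate 5 was lowest at 25.2 RPKM, while replicate 6 at 33.95 RPKM lay above replicate 1 at 30.28 RPKM.

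Among the paternally expressed members, *Dlk1* encodes a membrane protein of the Notch ligand family that is also found in developing motor neurons. It was at 8.52 to 62.9 RPKM (median 14.1) in oculomotor GFP-positive samples and at 0.905 to 21.9 RPKM (median 5.68) in spinal GFP-positive samples. GFP-negative cells held 0.580 to 2.62 RPKM (median 1.03) in oculomotor and 0.772 to 7.70 RPKM (median 2.95) in spinal cultures. The oculomotor fractions did not overlap, whereas the spinal fractions did, and the lowest spinal GFP-positive value was that of replicate 4.

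*Mest* encodes a hydrolase-like protein of mesodermal and neural tissues. It was at 2.18 to 100.5 RPKM (median 12.3) in oculomotor GFP-positive and 4.78 to 83.6 RPKM (median 19.5) in oculomotor GFP-negative samples. Spinal samples held 1.72 to 6.94 RPKM (median 3.62) in GFP-positive and 0 to 11.9 RPKM (median 6.29) in GFP-negative cells. Both highest values came from fractions of oculomotor culture 1, at 100.5 and 83.6 RPKM, and the lowest oculomotor values, in both fractions of culture 3, lay within the spinal range. In GENCODE M21 *Mest* overlaps *Copg2* on the opposite strand, and reads of the overlapping stretch cannot be told apart in unstranded libraries.

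*Peg3* encodes a zinc finger protein and *Plagl1* a zinc finger factor that restrains the cell cycle. *Peg3* was at 2.90 to 16.1 RPKM (median 5.60) and 3.68 to 15.8 RPKM (median 6.61) in oculomotor and spinal GFP-positive samples, and at 5.20 to 18.6 RPKM (median 11.4) and 13.7 to 32.4 RPKM (median 20.7) in the GFP-negative samples of these cultures. *Plagl1* was at 0.250 to 11.1 RPKM (median 7.26) and 1.38 to 6.49 RPKM (median 4.48) in oculomotor and spinal GFP-positive samples, and at 2.81 to 21.6 RPKM (median 7.37) and 2.25 to 19.8 RPKM (median 12.5) in GFP-negative samples. For both genes the spinal GFP-negative group had the highest median of the 4 groups, and the cultures overlapped in each fraction.

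*Peg10*, a gene of retrotransposon origin, had the lowest mean of the members over the 24 samples (3.03 RPKM), though *Dlk1* had a lower median in oculomotor GFP-negative samples. The medians of *Peg10* were 2.70 and 0.892 RPKM in oculomotor and spinal GFP-positive samples and 1.71 and 2.87 RPKM in the GFP-negative samples. Its range over all 24 samples was 0.0391 to 10.1 RPKM, and the deeper replicates 5 and 6 held at most 0.893 RPKM in any group. *Snrpn*, which encodes a splicing protein of the neuronal small ribonucleoproteins, was among the most abundant, at 31.3 to 163 RPKM (median 119.5) and 19.7 to 150 RPKM (median 110.0) in oculomotor and spinal GFP-positive samples. GFP-negative samples held 14.7 to 199 RPKM (median 54.9) in oculomotor and 4.37 to 68.2 RPKM (median 30.9) in spinal cultures. The *Snrpn* transcript also carries *Snurf*, which was not analysed here.

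**Figure D1:**
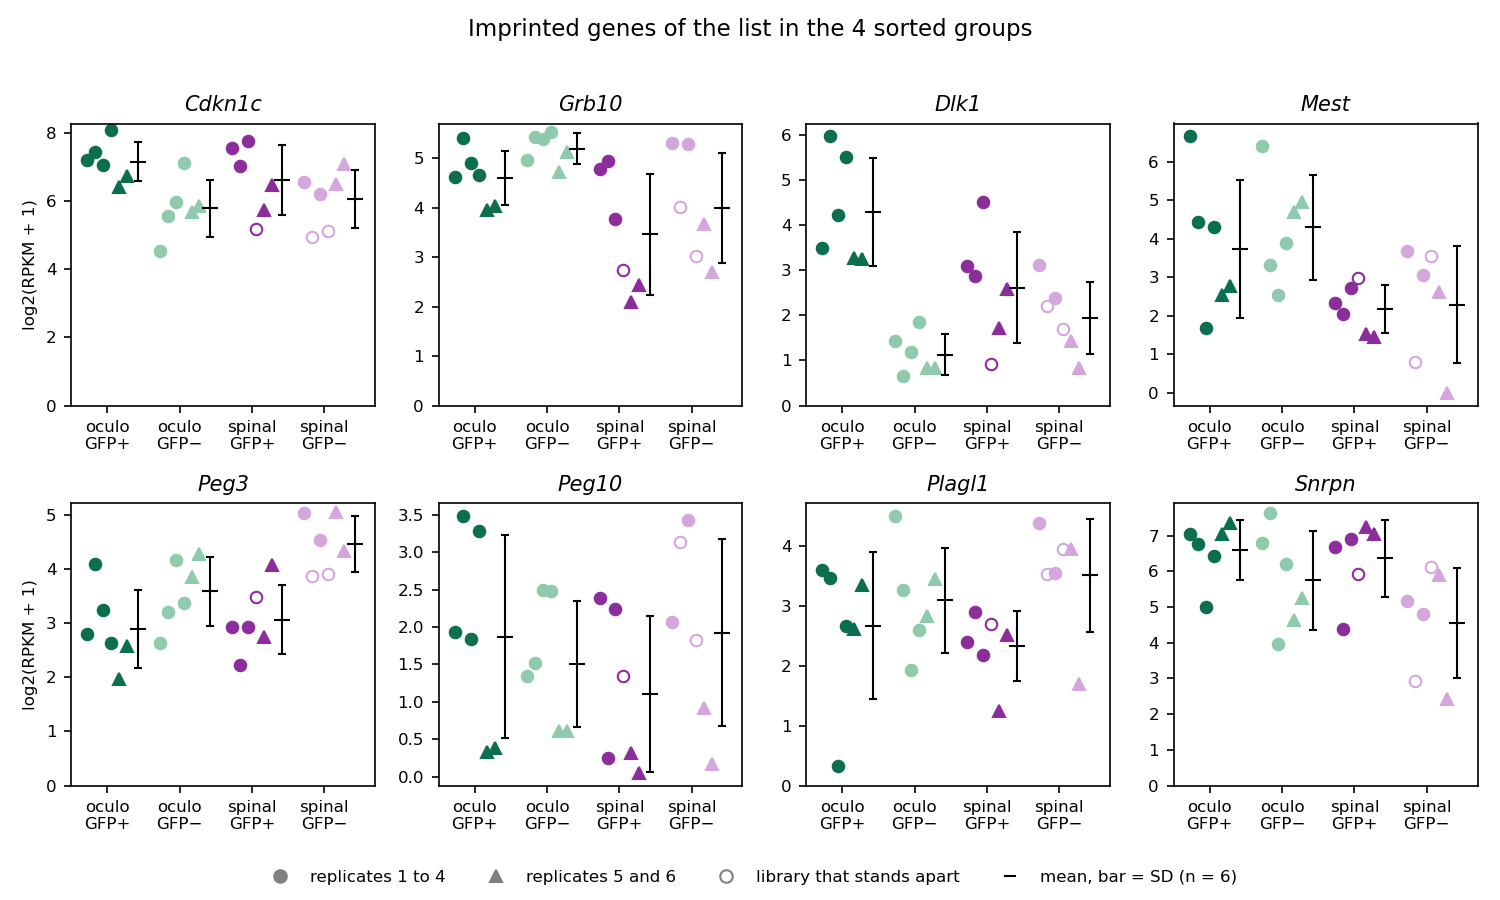
Level of the 8 imprinted genes as log2(RPKM + 1) in each of the 24 samples by sorted group, with replicates 1 to 4 as circles, replicates 5 and 6 as triangles, the 3 libraries that stand apart as open circles, and the mean and SD of 6 samples in black. The oculomotor fractions do not overlap for Dlk1, with at least 8.52 RPKM in GFP-positive and at most 2.62 RPKM in GFP-negative samples, while the other 7 genes overlap between cultures and between fractions.

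The first comparison asked whether the imprinted genes differed between the cultures in GFP-positive cells. All differences are oculomotor minus spinal on the log2(RPKM + 1) scale, tested with limma and adjusted over all genes tested, and the offset understates changes of genes near 1 RPKM. None of the 8 members passed an adjusted p of 0.05, while 116 of 19240 genes (0.603%) did. At an unadjusted p under 0.05 there were 3 members, against 1951 genes (10.1%) overall. Fewer cells of a type and less RNA per cell cannot be told apart in such bulk samples.

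The 3 members were *Dlk1* (difference 1.68, SE 0.63, adjusted p = 0.352), *Mest* (1.56, SE 0.70, adjusted p = 0.474) and *Grb10* (1.13, SE 0.50, adjusted p = 0.47), each higher on average in oculomotor cells. Without oculomotor GFP-positive replicate 1 the difference of *Mest* was 0.97. All 6 oculomotor samples lay above the spinal median for *Dlk1* and *Grb10* and 5 of 6 for *Mest*. The other members differed by between -0.18 (*Peg3*) and 0.77 (*Peg10*), with adjusted p from 0.714 to 0.916. The members' median difference was 0.66, beside -0.04 over all genes tested. No member had groups apart, meaning every sample of a group above every sample of the other, which 1.43% of all genes had.

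The same question in GFP-negative cells asked whether a difference was present without the reporter. Again none of the 8 members was called, against 213 of 22179 genes (0.96%), and 3 had an unadjusted p under 0.05, against 2500 genes (11.3%). These were *Mest* (difference 2.01, SE 0.76, adjusted p = 0.275), *Grb10* (1.20, SE 0.49, adjusted p = 0.33) and *Peg3* (-0.87, SE 0.36, adjusted p = 0.347). All 6 oculomotor samples lay above the spinal median for *Grb10* and 5 of 6 for *Mest*, and none did for *Peg3*. No member's groups were apart, against 1.27% of all genes. The median over the members was -0.35, beside -0.04 over all genes.

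*Mest* and *Grb10* thus had differences of the same sign in both fractions, with interactions of -0.45 (adjusted p = 0.959) and -0.07 (adjusted p = 0.991). So had *Snrpn*, at 0.24 in GFP-positive and 1.19 (SE 0.68, adjusted p = 0.526) in GFP-negative cells, and *Peg3*, at -0.18 and -0.87. For these genes the sign in GFP-positive cells was not stable. On leaving out each sample, *Snrpn* ranged there from -0.15 to 0.56 and *Peg3* from -0.42 to 0.026. With replicates 1 to 4 only, *Peg3* was at 0.30 in GFP-positive cells. In GFP-negative cells *Snrpn* ranged from 0.765 to 1.545 on leaving out each sample. Within replicates 1 to 4, the difference of *Mest* was 1.75 in GFP-positive and 1.26 in GFP-negative cells, and within replicates 5 and 6 it was 1.18 and 3.52. For *Grb10* these values were 0.84 and 0.93 within replicates 1 to 4 and 1.73 and 1.74 within replicates 5 and 6. *Dlk1* had opposite signs, at 1.68 in GFP-positive and -0.82 (SE 0.54, adjusted p = 0.6) in GFP-negative cells, and so had *Cdkn1c*, at 0.54 (0.25 without spinal GFP-positive replicate 4) and -0.29 (from -0.55 to -0.04 on leaving out each sample), *Peg10*, at 0.77 and -0.42 (from 0.45 to 1.08 and from -0.77 to -0.12 on leaving out each sample), and *Plagl1*, at 0.35 and -0.42 (from 0.13 to 0.82 and from -0.78 to -0.18). With replicates 1 to 4 only, *Cdkn1c* in GFP-negative cells was at 0.084 and *Plagl1* in GFP-positive cells at -0.03. The opposite signs of these genes were thus not kept there.

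**Figure D2:**
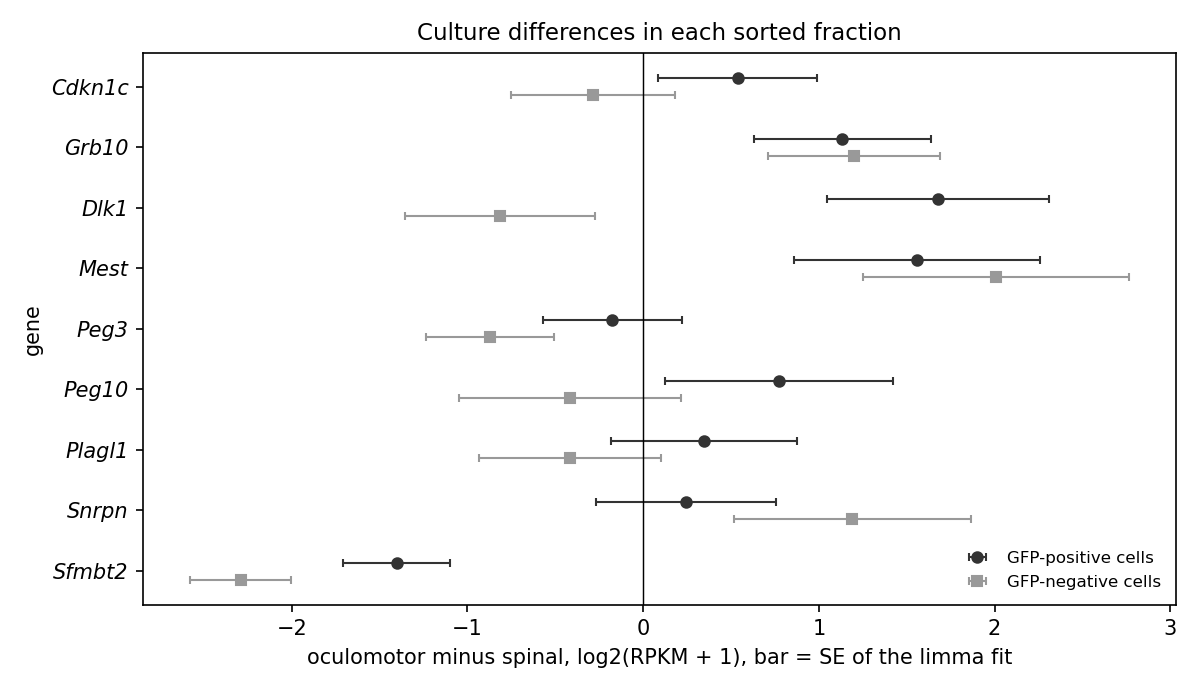
Oculomotor minus spinal difference of log2(RPKM + 1) for each gene, with the SE of the limma fit as bars, in GFP-positive (dark circles) and GFP-negative cells (grey squares). Grb10 lies at 1.13 and 1.20 and Mest at 1.56 and 2.01, while Sfmbt2, an imprinted gene outside the list, lies at -1.40 and -2.29.

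A difference of the whole culture was tested on the mean of both fractions of each culture number, with 6 oculomotor and 6 spinal means. It called none of the 8 members and 86 of 22179 genes (0.388%), with 2 members and 2068 genes (9.32%) at an unadjusted p under 0.05. The 2 members were *Mest* (difference 1.78, SE 0.64, adjusted p = 0.361) and *Grb10* (1.17, SE 0.43, adjusted p = 0.383). *Peg3* had -0.52 (SE 0.26, adjusted p = 0.578). None of the members had means apart between the cultures, against 1.41% of genes. A p that misses the threshold does not show that the lines express these genes alike.

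Between the fractions of the oculomotor cultures, 1 of the 8 members was called, against 1364 of 22179 genes (6.15%). This was *Dlk1*, which was higher in GFP-positive cells by 3.17 (SE 0.54, adjusted p = 0.000588) and in 6 of 6 cultures. Its groups were apart, as were those of 6.52% of all genes. The difference was 3.53 within replicates 1 to 4 and 2.45 within replicates 5 and 6. *Dlk1* was called in each of 34 alternative fits, with adjusted p from 4.47e-05 to 0.00845, and the replicate block gave 0.000348.

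*Cdkn1c* was also higher in GFP-positive cells of 6 of 6 oculomotor cultures, by 1.37 (SE 0.47), with an adjusted p of 0.0861 and 0.0197 with the replicate block. Over 34 alternatives its adjusted p ran from 0.0103 to 0.214. With the block the count of members rose from 1 to 2, and that of all genes from 1364 to 3644. Without oculomotor GFP-negative replicate 4, which had the highest *Cdkn1c* of its group, the difference was 1.64 (adjusted p = 0.0391). Without both spinal replicate 4 samples and spinal GFP-negative replicate 2, chosen after seeing the data, it was 1.37 (adjusted p = 0.0308). *Dlk1* and *Cdkn1c* moved with the neuron markers, whose sums were 1012 to 1610 RPKM in GFP-positive and 14.8 to 57.9 RPKM in GFP-negative oculomotor samples, and opposite to the pluripotency markers, whose sums were 0.315 to 265 RPKM and 725 to 9879 RPKM. The part of these cells in the differences was not tested.

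The other 6 members had adjusted p from 0.326 to 0.909 in this comparison. The lowest was that of *Peg3*, at -0.70 (SE 0.36), which was lower in GFP-positive cells of 4 of 6 cultures. Of 34 alternatives it passed the threshold in 1, with sample weights (-0.91, adjusted p = 0.0479). Over these alternatives its difference ran from -0.95 to -0.15 and its adjusted p from 0.0479 to 0.984. *Grb10* was lower in GFP-positive cells of 6 of 6 oculomotor cultures, by a mean of -0.60 (SE 0.49, adjusted p = 0.624). The members' median was -0.03, beside 0 over all genes, with 4 of 8 above 0. *Snrpn* was higher in GFP-positive cells of 5 of 6 cultures, at 0.86 (SE 0.68), a value that was 0.16 in replicates 1 to 4 and 2.26 in replicates 5 and 6.

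Between the fractions of the spinal cultures none of the members was called, against 272 of 22179 genes (1.23%), while 3 members and 2315 genes (10.4%) had an unadjusted p under 0.05. *Peg3* came closest to the threshold, at -1.40 (SE 0.36, adjusted p = 0.0594), and it was lower in GFP-positive cells of 6 of 6 cultures. Without both replicate 4 samples, whose sort is in doubt, the difference was -1.59 (adjusted p = 0.0301), and without spinal GFP-negative replicate 2 as well, chosen after seeing the data, -1.76 (adjusted p = 0.0204). It also passed with a filter at a mean of 1 RPKM (0.0447), with upper-quartile scaling (0.0454) and on leaving out, each alone, oculomotor GFP-positive replicate 2 (0.0413), spinal GFP-positive replicate 4 (0.0356) or 6 (0.0314), or spinal GFP-negative replicate 2 (0.048) or 4 (0.0427), in a range of adjusted p from 0.0204 to 0.303 over all alternatives. *Snrpn* was at 1.81 (SE 0.68, adjusted p = 0.278), higher in GFP-positive cells of 5 of 6 cultures, and *Plagl1* at -1.18 (SE 0.52, adjusted p = 0.409), lower in 5 of 6.

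None of the members was apart between spinal fractions, against 0.469% of genes. The members' median was -0.32, beside 0 over all genes. *Dlk1* was at 0.67 (SE 0.54, adjusted p = 0.749) in the spinal cultures, from 0.29 to 1.01 on leaving out each sample, the highest without spinal GFP-positive replicate 4. Several marker lists also moved between these fractions, with median sums in GFP-positive and GFP-negative cells of 758 and 95.2 RPKM for neurons, 128 and 338 RPKM for glia, 56.3 and 179 RPKM for endoderm, 5.03 and 49.1 RPKM for trophoblast and 2.23 and 8.33 RPKM for mesenchyme. In the same order, the pluripotency markers had medians of 925 and 232 RPKM. The part of these cells in the *Peg3* values was not tested.

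The interaction asked whether the step between fractions differed between cultures. It called none of the 8 members and 71 of 22179 genes (0.32%), and at an unadjusted p under 0.05 there were 1 member and 1582 genes (7.13%). The member was *Dlk1*, whose step was larger in the oculomotor cultures by 2.49 (SE 0.77, adjusted p = 0.245, and 0.0546 with the replicate block). Over 33 alternatives its adjusted p ran from 0.0546 to 0.619. A step of *Dlk1* that differs between the cultures was therefore not shown at the threshold.

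Other imprinted genes were taken from a list of 53, of which 48 had an entry. In GFP-positive cells 0 of 44 tested were called between cultures, against 0.603% of all genes, in GFP-negative cells 1 of 47 (2.13%), against 0.96%, and over both fractions 1 of 47, against 0.388%. Between fractions 3 of 47 (6.38%) were called in oculomotor cultures, against 6.15% of all genes, 2 of them higher and 1 lower in GFP-positive cells. In spinal cultures 1 of 47 was called, lower in GFP-positive cells, against 1.23%. None was called for the interaction, against 0.32% of all genes. Between cultures, groups were apart for 1 of 44 in GFP-positive and 1 of 47 in GFP-negative cells, against 1.43% and 1.27% of all genes. Over both fractions 3 of 47 were apart, against 1.41%. Between fractions 4 of 47 were apart in oculomotor cultures, against 6.52%, and 0 of 47 in spinal cultures, against 0.469%. At an unadjusted p under 0.05 there were 8 of 44 in GFP-positive cells, against 10.1% of all genes, 10 of 47 in GFP-negative cells, against 11.3%, and 5 of 47 for the interaction, against 7.13%. There were also 6 of 47 over both fractions, against 9.32%. Between fractions there were 9 of 47 in oculomotor cultures, against 18.1%, and 7 of 47 in spinal cultures, against 10.4%. The list's median differences were -0.05, -0.12 and -0.12 between cultures, beside -0.04 over all genes in each case, and 0.07 and 0.03 between fractions, beside 0.

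The called culture difference belonged to *Sfmbt2*, a Polycomb-related gene needed in trophoblast. It was listed as paternally expressed, but whether it is imprinted in these cells was not measured. It was at 0.0775 to 0.566 RPKM (median 0.217) in oculomotor GFP-positive and 0.409 to 1.38 RPKM (median 0.620) in oculomotor GFP-negative samples. Spinal samples held 0.942 to 5.83 RPKM (median 2.37) in GFP-positive and 3.96 to 10.8 RPKM (median 8.26) in GFP-negative cells. In each fraction the lowest spinal sample exceeded the highest oculomotor sample. The difference was -2.29 (SE 0.29, adjusted p = 0.000105) in GFP-negative cells, -1.40 (SE 0.30, adjusted p = 0.0594) in GFP-positive cells and -1.85 (SE 0.23, adjusted p = 0.00295) over both fractions.

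Within replicates 1 to 4 these *Sfmbt2* differences were -2.36, -1.45 and -1.91, and within replicates 5 and 6 they were -2.15, -1.30 and -1.72. In GFP-negative cells it was called in each of 34 alternative fits (adjusted p from 9.7e-06 to 0.0169), and over both fractions in 20 of 21, with 0.0878 for replicates 1 to 4 only. *Sfmbt2* was also lower in GFP-positive than in GFP-negative cells of 6 of 6 spinal cultures, by a mean of -1.34 (SE 0.29, adjusted p = 0.0147), a call lost in the fit of the 12 spinal samples alone (adjusted p = 0.293), with an offset of 0.1 RPKM (0.0999) and with replicates 1 to 4 only (0.245), over a range of 0.00157 to 0.293. The interaction for *Sfmbt2* was 0.89 (SE 0.41, adjusted p = 0.651). Marker sums also differed between oculomotor and spinal GFP-negative samples, with medians of 20.9 and 49.1 RPKM for trophoblast and 66.4 and 338 RPKM for glia. *Krt8* (apart from spinal replicate 4) and *Fabp7* made up most of these sums. *Tfap2c* and *Slc1a3* of these lists, picked after their values were seen, were mostly lower in spinal samples. *Tfap2c* was at 1.41 to 17.5 RPKM in oculomotor and 0.308 to 1.81 RPKM in spinal GFP-negative samples (replicate 4 at 44.0 RPKM). *Slc1a3* was at 3.52 to 7.90 RPKM and 0.623 to 2.96 RPKM (replicate 5 at 8.04 RPKM). The endoderm, mesenchyme and pluripotency sums had lower medians in the spinal ones, although *Gata4*, *Gata6* and *Sox17* were higher there apart from replicate 4. In spinal GFP-positive samples the trophoblast median was 5.03 RPKM. The part of particular cell types in the *Sfmbt2* values was not tested.

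The genes called between oculomotor fractions were *Ndn*, *Peg13* and *Phlda2*. *Ndn*, a neighbour of *Snrpn* whose product necdin is found in postmitotic neurons, was at 31.3 to 66.0 RPKM (median 42.2) in GFP-positive and 3.69 to 10.6 RPKM (median 7.77) in GFP-negative oculomotor samples (difference 2.50, SE 0.41, adjusted p = 0.000336). *Peg13*, a brain-expressed noncoding RNA, was at 2.92 to 9.58 RPKM (median 5.11) and 0.0878 to 0.477 RPKM (median 0.383) in these groups (2.22, SE 0.49, adjusted p = 0.00652). *Phlda2*, a growth-restraining gene of the placenta next to *Cdkn1c*, was at 0 to 12.6 RPKM (median 0.723) and 15.2 to 65.8 RPKM (median 48.4) (-4.05, SE 0.85, adjusted p = 0.00411). For all 3 genes the oculomotor fractions did not overlap, and each was called in 33 of 34 alternatives, the exception being replicates 1 to 4 only, with adjusted p of 0.051, 0.061 and 0.0981. These genes changed along with the neuron and pluripotency markers given above, whose part was not tested.

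In spinal cultures *Ndn* was at 7.28 to 53.0 RPKM in GFP-positive and 3.24 to 25.7 RPKM in GFP-negative samples (difference 1.20, adjusted p = 0.204), *Peg13* at 0 to 9.42 and 0.125 to 3.94 RPKM (1.02, adjusted p = 0.472), and *Phlda2* at 1.15 to 96.8 and 0.527 to 29.2 RPKM (1.09, adjusted p = 0.736). These ranges overlapped. Each of these genes was higher in GFP-positive cells of 5 of 6 spinal cultures, whereas *Phlda2* was lower in those of 6 of 6 oculomotor cultures. The interaction of *Phlda2* was -5.14 (SE 1.20, adjusted p = 0.0615), and those of *Ndn* and *Peg13* were 1.30 (adjusted p = 0.616) and 1.19 (adjusted p = 0.791). These values come from the fit that does not pair the fractions of a culture, and paired ones are not reported here.

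**Figure D3:**
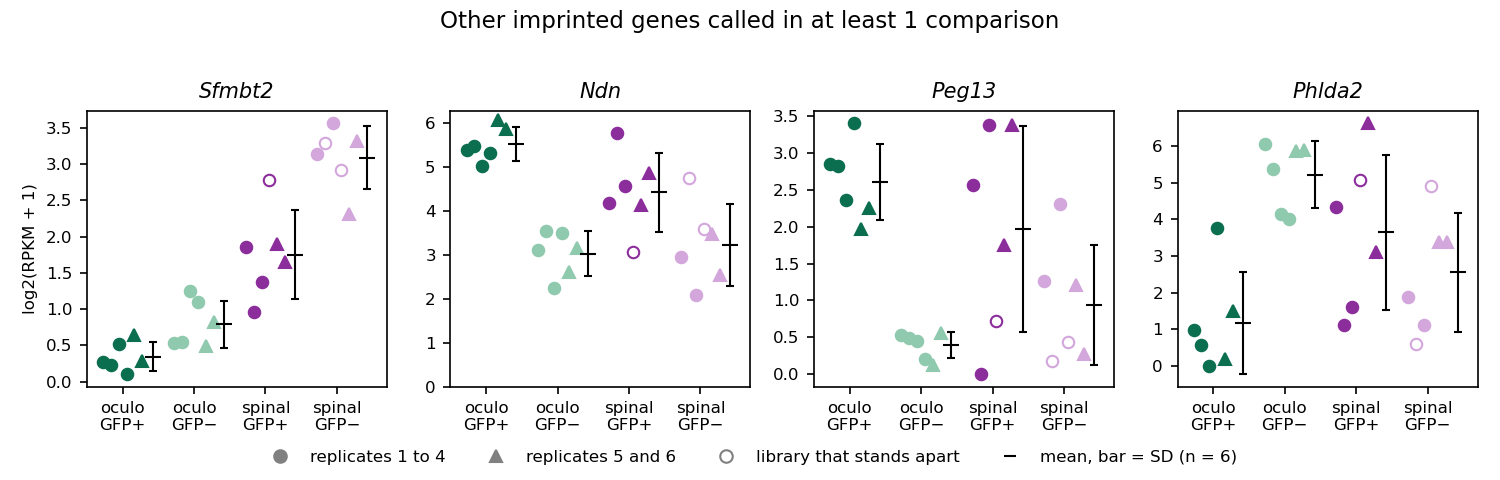
Level of the 4 other imprinted genes called in at least 1 comparison, as log2(RPKM + 1) in each of the 24 samples by sorted group, with symbols as in the plot of the 8 listed genes. Sfmbt2 lies higher in spinal than in oculomotor samples of both fractions, and Phlda2 reaches at most 12.6 RPKM in oculomotor GFP-positive and at least 15.2 RPKM in oculomotor GFP-negative samples.

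The partner genes of the members' loci gave no call between cultures. *Igf2*, the growth factor gene beside *H19*, ranged from 0.657 to 22.6 RPKM over the 24 samples, with differences of 0.14 in GFP-positive and 0.32 in GFP-negative cells, and it was lower in GFP-positive cells by a mean of -1.38 (SE 0.47, adjusted p = 0.0838) in oculomotor and -1.20 (SE 0.47, adjusted p = 0.312) in spinal cultures. *Kcnq1ot1*, the noncoding RNA of the *Cdkn1c* domain, ranged from 0.263 to 7.90 RPKM, *Sgce*, beside *Peg10*, from 0.389 to 11.4 RPKM, and *Copg2* from 0 to 9.48 RPKM. *Rtl1*, next to *Dlk1*, and *Usp29*, next to *Peg3*, stayed at or under 1.49 and 1.26 RPKM. The noncoding RNAs *Rian* and *Mirg* were not analysed here.

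The 6 imprint maintenance genes were measured beside the members. None was called between cultures, with 2 of 6 at an unadjusted p under 0.05 in GFP-positive cells, 1 in GFP-negative cells and 1 over both fractions, against 10.1%, 11.3% and 9.32% of all genes. Between oculomotor fractions 1 of 6 was called, against 6.15% of all genes. This was *Dppa3*, an egg and stem cell factor that protects methylation, with at most 1.05 RPKM in GFP-positive and 4.99 to 76.2 RPKM in GFP-negative samples (difference -4.17, SE 1.07, adjusted p = 0.0187). *Zfp57* ranged from 1.42 to 66.5 RPKM, *Zfp445* from 7.00 to 27.4 RPKM, *Trim28* from 19.5 to 185 RPKM, *Dnmt1* from 5.42 to 41.8 RPKM and *Uhrf1*, which brings DNMT1 to replicated DNA, from 1.12 to 68.0 RPKM. All 5 were thus above 1 RPKM in each of the 24 samples.

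How the members varied with each other was described by Pearson's r of log2(RPKM + 1) over the 24 samples, which share libraries, cultures and depth. The median over the 28 pairs of members was 0.17. The highest value was that of *Dlk1* and *Cdkn1c* (0.71, and 0.53 after removal of the group means), followed by *Mest* and *Plagl1* (0.56 and 0.75) and *Peg10* and *Grb10* (0.51 and 0.59). *Peg3* and *Snrpn* had the lowest value (-0.46 and -0.07). After removal of the group means the values next to *Mest* and *Plagl1* were those of *Peg10* and *Dlk1* (0.69, and 0.46 before) and of *Dlk1* and *Grb10* (0.64, and 0.20 before).

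Among 11950 genes with a mean of at least 1 RPKM, the genes most like *Dlk1* were *Syp* (r = 0.93), *Sh2b2* (0.93) and *Nhlh1* (0.92). Those most like *Cdkn1c* were *Bnip2* (0.86), *Sox11* (0.83) and *Tcaf1* (0.83), and those most like *Grb10* were *Qars* (0.88), *Nek9* (0.86) and *Rab34* (0.85). *Snrpn* was most like *Ywhah* (0.88), *Atg101* (0.88) and *Vps41* (0.83). *Peg10* was most like *Acads* (0.91), *Csnk1g2* (0.88) and *A730062M13Rik* (0.85), *Peg3* like *Ntn1* (0.82), *Parva* (0.82) and *Fndc3b* (0.81), and *Plagl1* like *Tm9sf1* (0.70), *Rnf130* (0.69) and *Dnajc9* (0.68). None of these was itself a member. These ranks rest on r over all 4 groups, and after removal of the group means the r of these genes ran from 0.62 (*Fndc3b*) to 0.91 (*Acads*).

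In GENCODE M21 (GRCm38) the members lay on 5 chromosomes. *Cdkn1c* (chr7:143458339-143461050), *Peg3* (chr7:6703892-6730431) and *Snrpn* (chr7:59982495-60140219) were on chromosome 7, *Mest* (chr6:30723547-30748465) and *Peg10* (chr6:4747306-4760517) on chromosome 6, *Dlk1* (chr12:109452823-109463336) on 12, *Plagl1* (chr10:13060504-13131694) on 10 and *Grb10* (chr11:11930508-12038683) on 11. All 8 are annotated as protein coding.

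Promoter windows of 300 bases, 250 of them before the start, were taken from RefSeq (GRCm38.p6), where 7 of the 10 listed genes had 14 windows. They were searched for the letters TGCCGC on both strands, the hexamer that ZFP57 binds when it is methylated, and for CpG pairs. The hexamer was in 6 of the 14 windows, from 5 genes (*Meg3*, *Mest*, *Plagl1*, *Snrpn* and *Grb10*), and in 11.6% of 32851 windows overall. The CpG count was 45 and 9 in the *Grb10* windows, 26 in the *Plagl1* window, 17 in each of 2 largely overlapping *Mest* windows and 9 in the *Dlk1* window. It was 7, 4, 3 and 2 in the *Snrpn* windows, 13 and 1 in the *Meg3* windows and 13 in the *Peg3* window, and the median was 9 over the 14 windows, beside 7 over all windows. Such a match describes letters only, and methylation and binding were not measured.

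The 250 bases before the start are shown for *Dlk1*, the member called between fractions, and for *Mest*, the member with the largest culture difference in GFP-negative cells. The *Dlk1* stretch (chr12:109452573-109452822, plus strand) holds 8 CpG and lies outside annotated genes. The *Mest* stretch (chr6:30737800-30738049, plus strand) holds 14 CpG and lies within the *Mest* gene, outside its exons. It belongs to 1 of the 2 *Mest* windows with the hexamer, and the third *Mest* window, further upstream, holds 8 CpG and no hexamer. Capitals mark the hexamer, here read on the opposite strand as GCGGCA.
*Dlk1*: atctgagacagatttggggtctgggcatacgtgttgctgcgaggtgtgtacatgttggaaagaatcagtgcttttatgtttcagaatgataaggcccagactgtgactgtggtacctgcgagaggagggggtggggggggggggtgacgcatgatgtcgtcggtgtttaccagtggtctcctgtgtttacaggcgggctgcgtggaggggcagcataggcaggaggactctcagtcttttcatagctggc
*Mest*: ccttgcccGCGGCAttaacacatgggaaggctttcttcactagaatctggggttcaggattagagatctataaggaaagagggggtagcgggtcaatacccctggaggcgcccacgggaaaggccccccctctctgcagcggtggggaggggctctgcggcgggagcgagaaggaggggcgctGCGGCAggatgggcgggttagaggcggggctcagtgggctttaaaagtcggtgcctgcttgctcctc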

How the data were processed

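Reads of 24 SMART-seq2 libraries were mapped by the authors to mm10 (GRCm38) with HISAT2 2.0.3, and the deposited table holds RPKM from rpkmforgenes; the gene annotation they used is not given in the sources used here. The authors' own test, DESeq2 1.12.4, needs counts and was not run. Human samples were not used.

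Tests ran in limma 3.58.1 under R 4.3.3 on log2(RPKM + 1) (moderated variances with a mean trend, Benjamini-Hochberg adjustment over all genes tested, threshold 0.05), for genes above 0 in at least 2 of the samples fitted. GFP-positive samples were fitted alone, both-fraction means as 12 values, and the other comparisons in a fit of all 24 samples. These tests were checked on simulated data, and the outcome of that check is not reported here. Values and figures were made with pandas 2.3.3, numpy 2.4.6 and matplotlib 3.10.9 under Python 3.11.15.

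Estimated depth was 748310 to 7610753 reads, and between 96.1% and 97.9% of low values were within 2% of a whole number of reads. Methods in the paper mention repeated experiments and technical duplicates in general, but which sequenced replicates are separate differentiations is not given in the sources used here, so the p-values measure only the spread between these samples, which may be technical. The libraries have no molecular identifiers.

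Replicate numbers pair the fractions of a culture: deviations from the group means correlated at 0.38 to 0.73 in the 6 oculomotor and 0.42 to 0.66 in the 6 spinal pairs. Between cultures, same-numbered samples correlated at 0.57 to 0.71 for numbers 5 and 6 and at -0.17 to 0.44 for numbers 1 to 4, and only the replicate block pairs cultures by number, for the culture differences.

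Named genes are the members, other imprinted genes called in any comparison, partner genes of the members' loci, imprint maintenance genes, the 3 genes most like each member (those of *Mest* are not reported here), and the most abundant gene of each marker list. The members and lists were chosen with earlier results of these data known. Alternatives were the offset, the filter on low values, upper-quartile scaling, sample weights, the replicate block, the samples fitted, replicates 1 to 4 only, and each sample left out.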

Additional observations from a re-analysis of the deposited data

Results flagged for a closer look

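A value far from the others of its group was looked for on the log2(RPKM + 1) scale in 48 groups, those of the 8 members and the 4 other imprinted genes called in a comparison. Chance alone sets about 1 in 20 such groups apart, and 2 were found, both for *Plagl1*. Oculomotor GFP-positive replicate 3 was at 0.250 RPKM, with the next sample at 5.12 RPKM. Spinal GFP-negative replicate 6 was at 2.25 RPKM, with the next sample at 10.5 RPKM. None of the 12 genes had a called interaction in the main fit, which does not pair the fractions of a culture. In none of these 12 did every culture of a line step up between fractions while every culture of the other line stepped down. Outside these 12, the listed imprinted gene *Slc38a4*, singled out after its values were seen, was lower in GFP-positive cells of 6 of 6 oculomotor and higher in those of 6 of 6 spinal cultures, with an interaction of -2.75 (SE 1.15, adjusted p = 0.562).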

How the results depend on the processing

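No member was called in the 3 culture differences or the interaction under any alternative, the replicate block and each left-out sample included. Between oculomotor fractions the count of 1 member became 2 with the replicate block, with the fit of the 12 samples compared and, chosen after seeing the data, without the spinal number 4 samples and spinal GFP-negative 2, and 3 with sample weights. It ranged from 1 to 2 on leaving out each sample. Between spinal fractions the count of 0 became 1 with the filter at a mean of 1 RPKM, with upper-quartile scaling, without the spinal number 4 samples and without spinal GFP-negative 2 as well, and ranged from 0 to 1 on leaving out each sample. The replicate block changed no other member's call.

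Of 1424 alternative values of the members' differences, 1369 kept sign and side of the threshold, 15 newly passed it and 40 changed sign, none of these called. With replicates 1 to 4 only, *Peg3* and *Plagl1* in GFP-positive cells were at 0.30 and -0.03, *Cdkn1c* in GFP-negative cells at 0.084, and *Mest* at 0.24 between oculomotor fractions and 0.49 in the interaction. With sample weights, *Cdkn1c* and *Plagl1* over both fractions were at -0.17 and 0.36, *Peg10* between oculomotor fractions at -0.051 and *Grb10* in the interaction at 0.20. Without the spinal number 4 samples, *Cdkn1c* and *Plagl1* over both fractions were at -0.11 and 0.048, and without spinal GFP-negative 2 as well at -0.26 and 0.14, with the interaction of *Grb10* at 0.03. With an offset of 0.1 RPKM, *Mest* between spinal fractions was at 0.36. On leaving out each sample or culture, over both fractions *Cdkn1c* ranged from -0.11 to 0.27, *Peg10* from -0.10 to 0.44 and *Plagl1* from -0.27 to 0.32. In GFP-positive cells *Peg3* ranged from -0.42 to 0.026 and *Snrpn* from -0.15 to 0.56, between fractions *Plagl1* in oculomotor cultures from -0.66 to 0.047 and *Mest* in spinal cultures from -0.57 to 0.16, and in the interaction *Grb10* from -0.34 to 0.23 and *Mest* from -1.04 to 0.007. The cause was not tested.

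Counts over all genes moved more: 116 ranged from 30 to 342 in GFP-positive and 213 from 39 to 650 in GFP-negative cells, 86 from 23 to 347 over both fractions, 1364 from 476 to 3795 between oculomotor and 272 from 1 to 649 between spinal fractions, and 71 from 10 to 453 in the interaction, each lowest with replicates 1 to 4 only, which holds fewer samples. With the replicate block these counts were 73, 563, 41, 3644, 649 and 453. Depth limits genes near 1 RPKM, *Peg10* among them, although *Peg10* was at most 0.893 RPKM in the deeper replicates 5 and 6.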
